A study of Mus musculus with 4 samples.

Results

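The 7 genes described here encode the receptor chains of the common gamma chain cytokine family that were looked up by symbol, Il2ra, Il2rb, Il2rg, Il7r, Il4ra, Il21r and Il15ra, and all 7 were found among the 31053 genes of every count matrix. They were measured by 5′ single-cell RNA sequencing of mononuclear cells, enriched on a density gradient, from the livers of C57BL/6 mice aged 8 to 10 weeks. The design has 4 libraries, 1 per condition. Naïve mice received no concanavalin A (ConA), a plant lectin that activates T cells and causes an acute hepatitis. ConA+Veh mice received ConA and, per the study's methods, vehicle. ConA+TCDD mice received ConA and TCDD, and ConA+FICZ mice ConA and FICZ, both ligands of the aryl hydrocarbon receptor (AhR), a transcription factor. The ConA livers were taken 24 h after ConA. The number of mice behind each library is not given in the sources used here, and with 1 library per condition no test between conditions was possible. A difference between conditions cannot be told apart from a difference between these libraries.

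Cytokine receptors of this family share the gamma chain encoded by Il2rg, which signals through the kinase JAK3, while the partner chains signal through JAK1 and determine which cytokine is bound. The beta chain Il2rb pairs with the gamma chain to bind IL-2 and IL-15, and the alpha chains Il2ra and Il15ra raise the affinity for one or the other. Il7r with the gamma chain binds IL-7, a survival factor of resting T cells, and also serves the receptor for TSLP. Il4ra binds IL-4 and Il21r binds IL-21, both of which act on B cells and T cells. STAT proteins carry the signal to the nucleus, chiefly STAT5 for IL-2, IL-7 and IL-15, STAT6 for IL-4 and STAT3 for IL-21.

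The libraries held 2086, 2779, 1880 and 2555 cells in that order of conditions (Naïve, then ConA+Veh, then the TCDD and the FICZ library), with 5952445, 19252211, 12077209 and 16017797 unique molecular identifiers (UMIs), and every series of 4 values below keeps that order. Cells were assigned by counting marker UMIs, with none of the 7 genes used. The CD8 T gate held 168, 388, 268 and 239 cells, and the CD4 T gate 60, 102, 71 and 59. NKT-type T cells, with a UMI of Zbtb16 or Klrb1c, numbered 95, 79, 53 and 58, NK cells 79, 161, 114 and 114, and B cells 1080, 819, 385 and 781. T cells with Trdc, a constant segment of the gamma delta receptor, numbered 14, 24, 13 and 23. The 7 gates held 1507, 1622, 951 and 1326 cells. Between pairs of libraries 45 cell barcodes were shared, of which 10 fell in the same class.

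The gates were checked against markers outside their rules. Prf1, Gzma and Nkg7 were highest in NK cells, and Ebf1, Cd74 and Pax5 in B cells, in all 4 libraries. Other checks were not met throughout. Ccl5, Gzmb and Nkg7 ranked 4 or 5 of the 7 gates in CD8 T cells, and Cd40lg ranked 2 or 3 in CD4 T cells. In NKT-type cells Cxcr6 was highest in all 4 libraries, but Tbx21 ranked 3, 2, 3 and 4. A last gate, set up for regulatory T cells by Foxp3, or by Ikzf2 with Ctla4 or Tnfrsf4, held 11, 49, 47 and 52 cells, of which only 3, 8, 15 and 19 had a Foxp3 UMI. Icos was highest there in all 4 libraries, and Tnfrsf18 ranked 2 in Naïve and 4 in ConA+TCDD. It is therefore called the Foxp3/Ikzf2 gate. Cells of the Trdc gate are called by that gene, since no marker outside the rule is reported for them.

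Levels are given as CPM, the UMIs of a gene summed over the cells of a gate per 1000000 UMIs of those cells. Log2 ratios compare levels in CPM. The ConA ratio divides ConA+Veh by Naïve, and the TCDD and FICZ ratios divide each ligand library by ConA+Veh. Every interval is at 95% and covers counting error only, not the spread between mice or libraries, and molecules of 1 cell are not independent. A level over a gate does not separate fewer cells with a transcript from less transcript per cell. Cells of the ConA libraries also held more UMIs. The median CD8 T cell held 3250, 9560.5, 8990 and 11866 UMIs, so a lower CPM does not always mean fewer molecules per cell.

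In these livers 2 receptor chains stood out between Naïve and ConA+Veh. Il7r was lower in the T cell gates of the ConA+Veh library, by -4.25 on the log2 scale in CD8 T cells and -1.49 in NKT-type cells. Il2ra was higher in CD8 T cells by 1.79 on that scale, and also past 2-fold higher in CD4 T, Foxp3/Ikzf2 and B cells. Il4ra was lower in B cells by -1.68, and Il2rb was higher in the Foxp3/Ikzf2 gate by 1.32. Il2rg differed by less than 2-fold in each of these 7 gates. Endothelial cells, outside them, stood at 14.8 CPM in Naïve and 220 in ConA+Veh, from 2 and 58 UMIs. In ConA+FICZ they stood at 91.1 CPM from 15 UMIs, lower than in ConA+Veh at -1.28 (-2.20 to -0.44). The part of lymphocyte RNA in the endothelial level was not tested. Of 49 pairs of gene and gate, 42 had at least 20 UMIs over both libraries. Among them 7 were more than 2-fold higher in ConA+Veh, against 12.1% of all genes in the same gates, and 6 were more than 2-fold lower, against 13.4%. In all, 13 of 42 were past 2-fold, against 25.5% of all genes, so the count by itself is close to the background.

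The AhR ligands were compared with the same ConA+Veh library, so those comparisons share their control. With TCDD 1 pair was more than 2-fold higher, Il15ra in B cells, against 1.67% of all genes, and 1 more than 2-fold lower, Il21r in the Trdc gate, against 3.81%, of 42 pairs, or 2 in either direction against 5.48%. With FICZ 2 of 43 pairs were more than 2-fold higher, Il7r and Il15ra in B cells, against 2.41% of all genes, and 0 more than 2-fold lower, against 4.45%, which makes 2 in either direction against 6.86%. These counts lie near the background, and what follows rests on the levels themselves.

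**Figure D1:**
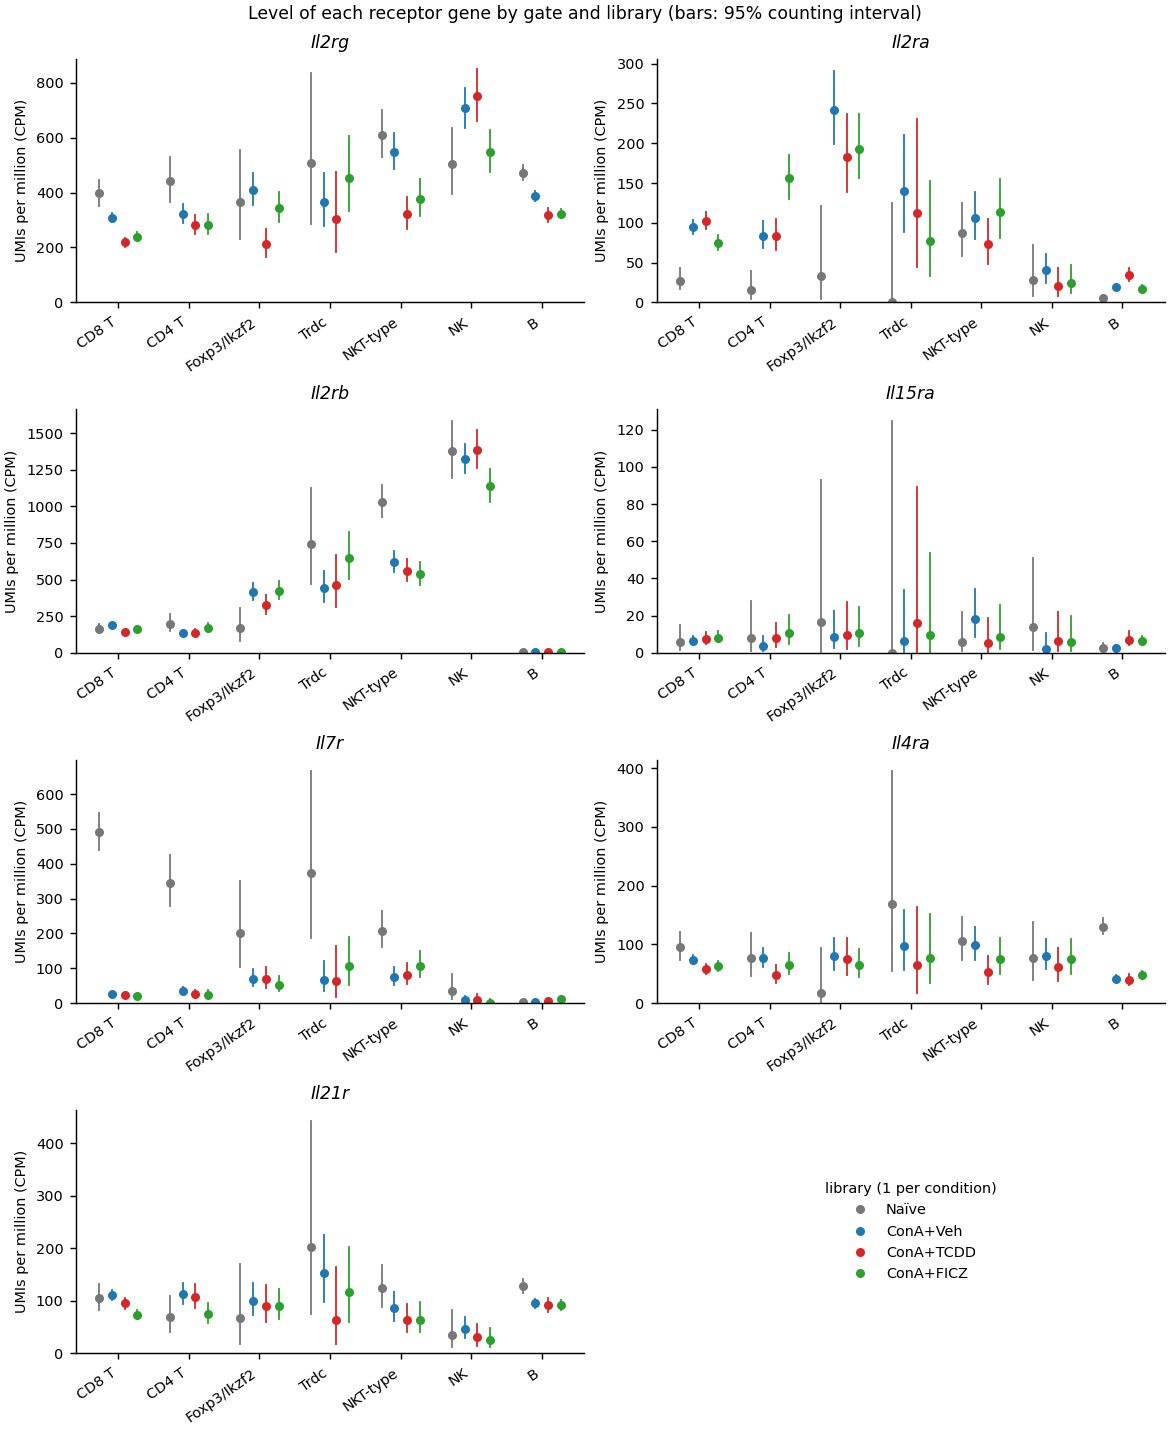
Level of each of the 7 genes in CPM (vertical axis, own scale per panel) by gate (horizontal axis) and library (colour), with exact Poisson 95% intervals for counting error. Il7r in CD8 T cells is at 490.3 CPM in Naïve and at 19.9 to 25.7 in the ConA libraries, and Il2rb is at 1139 to 1385 in NK cells and under 8 in B cells.

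The gamma chain Il2rg, on chromosome X of mm10 (chrX:101264378-101268255, minus strand), was found in every lymphocyte gate. The sequence of its RefSeq promoter (GRCm38.p6, chrX:101268256-101268505, minus strand, the 250 bases before the gene's start) is shown because Il2rg is the chain shared by all the receptors and stood below ConA+Veh in several gates of each ligand library. The capitals mark GCGTG, the core of the AhR response element, at -41 to -37 from the start, and CCGGAAG, a motif of ETS factors, at -17 to -11.

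Il2rg: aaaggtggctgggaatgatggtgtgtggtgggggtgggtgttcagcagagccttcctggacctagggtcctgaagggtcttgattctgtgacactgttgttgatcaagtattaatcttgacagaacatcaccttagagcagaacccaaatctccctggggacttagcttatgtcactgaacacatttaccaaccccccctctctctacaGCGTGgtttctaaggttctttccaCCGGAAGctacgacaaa

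GCGTG was found, searching both strands, in 32.4% of 32851 RefSeq promoter windows and CCGGAAG in 8.86%. A match describes these letters and is not a binding site. The search found no TTCNNNGAA (STAT) in the window, which 8.3% of all windows hold, and no GTAAACA (FOXO), which 3.65% hold. Gm20489, which overlaps Il2rg on the same strand, had 0 UMIs in all 4 libraries.

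In CD8 T cells Il2rg stood at 397 (351 to 447), 308 (293 to 324), 218 (203 to 235) and 239 (224 to 256) CPM. The Naïve library was highest, and the libraries with an AhR ligand were lowest, with intervals that did not overlap that of ConA+Veh. The log2 ratios were -0.36 (-0.55 to -0.17) for ConA, -0.50 (-0.63 to -0.37) for TCDD and -0.37 (-0.49 to -0.24) for FICZ. The first of these depended on the scale, as it turned to 0.32 with every cell weighted equally and to 0.10 without cycling cells. The FICZ ratio was -0.14 when cells under 200 genes or over 10% mitochondrial UMIs were left out. Per CD8 T cell the UMIs of Il2rg numbered 1.64, 3.87, 2.72 and 3.67, so each cell held more of them in the ConA libraries.

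The lower level with TCDD was seen among CD8 T cells of different states. CD8 T cells with at least 2 genes of a naive-type set that includes Ccr7, Lef1, Dapl1 and Igfbp4 and no cycling set stood at 399 and 239.5 CPM in ConA+Veh and ConA+TCDD, a log2 ratio of -0.73 (-1.02 to -0.45). Cycling CD8 T cells, with at least 2 of Mki67, Top2a, Birc5, Cdk1 and Ccna2, stood at 284 and 206, a log2 ratio of -0.47 (-0.62 to -0.31). CD8 T cells in neither set stood at 556 and 285, a log2 ratio of -0.97 (-1.44 to -0.49). The corresponding log2 ratios with FICZ were -0.44, -0.36 and -1.04. Within each of the 3 states Il2rg was lower with either ligand than in ConA+Veh. These states are parts of 1 gate in the same libraries. Cycling cells were 1.19%, 70.4%, 50% and 52.7% of the CD8 T gate, and the part of cell state in the Il2rg ratios was not tested.

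The other T cell gates had fewer cells and wider intervals. In CD4 T cells Il2rg stood at 441, 322, 282 and 283 CPM, and the intervals of the TCDD and FICZ ratios reached 0, at -0.19 (-0.43 to 0.04) and -0.19 (-0.43 to 0.05). Their ConA ratio of -0.45 (-0.76 to -0.14) turned to 0.35 with each cell weighted equally. In the Foxp3/Ikzf2 gate it stood at 367, 409.5, 211 and 345, with a TCDD log2 ratio of -0.96 (-1.38 to -0.55). NKT-type cells held 611, 547, 323 and 378 CPM, with log2 ratios of -0.76 (-1.08 to -0.45) for TCDD and -0.53 (-0.85 to -0.23) for FICZ. These NKT-type ratios shrank to -0.30 and -0.12 under stricter gates, and the TCDD ratio to -0.12 with gates set on thinned cells. The Trdc gate, of at most 24 cells, stood at 507, 366, 304 and 454, with no interval of a ratio apart from 0 in any comparison.

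In NK cells the ConA+Veh and ConA+TCDD libraries were the highest. Their Il2rg level was 506 (396 to 637), 706 (636 to 782), 752 (661 to 851) and 548 (474 to 629) CPM, higher in ConA+Veh than in Naïve by a log2 ratio of 0.48 (0.11 to 0.87). That ratio was 0.15 under stricter gates. The TCDD ratio had an interval that held 0, at 0.09 (-0.15 to 0.33), and the level was lower with FICZ, at -0.37 (-0.62 to -0.11). NK cells had the highest Il2rg of the 7 gates in all 3 ConA libraries, apart from the next gate by non-overlapping intervals in ConA+Veh and ConA+TCDD. B cells stood at 473, 387, 317 and 322 CPM, lower with TCDD by a log2 ratio of -0.29 (-0.42 to -0.16) and with FICZ of -0.26 (-0.37 to -0.16). The ConA ratio of B cells was -0.29 (-0.39 to -0.18), which became -0.01 when centred on the median of all genes, and 0.02 with each cell weighted equally. Whether the ratios differ between gates was not tested.

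**Figure D2:**
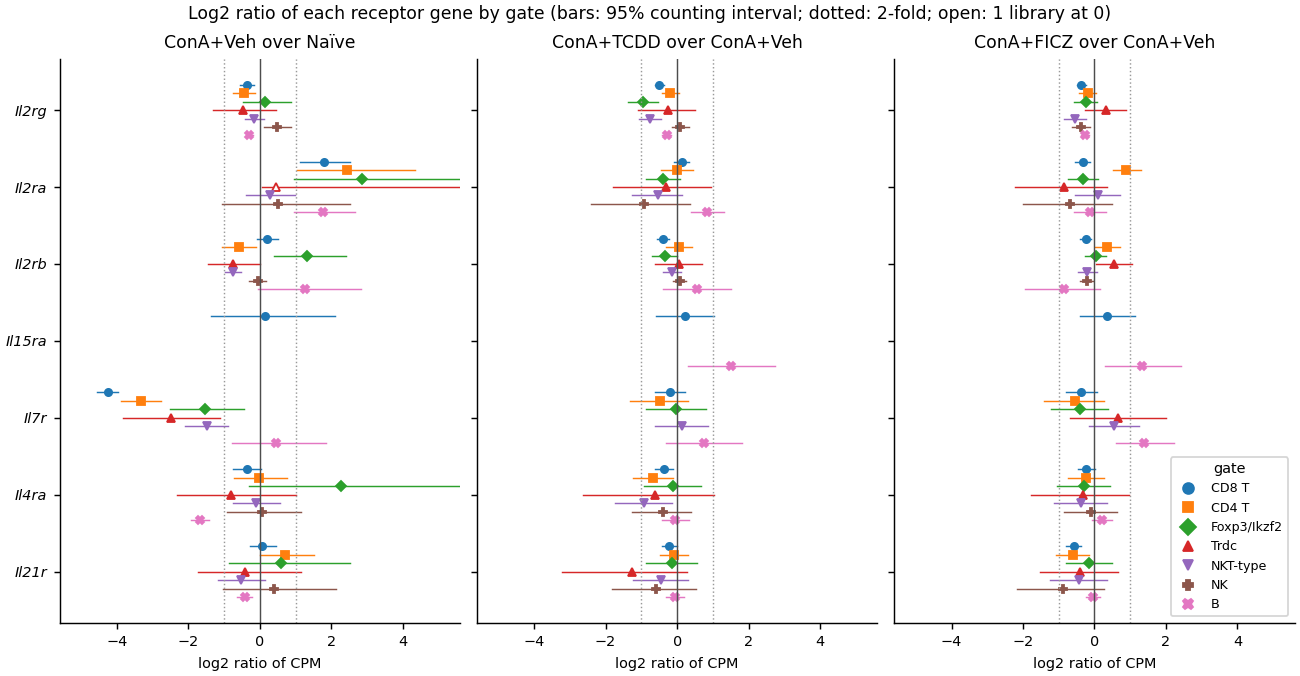
Log2 ratios of CPM (horizontal axis) of the 7 genes in the 7 gates for the ConA, TCDD and FICZ ratios (one panel each), with exact 95% intervals for counting error; open symbols are bounds against a count of 0, and some intervals run past the axis. Il7r lies left of 0 in the first panel in every T cell gate, at -4.25 in CD8 T cells, and Il2ra right of 0.

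The beta chain Il2rb (chr15:78479256-78495271, minus strand) had the clearest order across cell types. In NK cells, which depend on IL-15, it stood at 1376 (1190 to 1583), 1323 (1226 to 1425), 1385 (1261 to 1519) and 1139 (1032 to 1255) CPM and was the highest of the 7 gates in every library, with an interval apart from that of the next gate. NKT-type cells followed with 1033, 619, 560.1 and 538 CPM and the Trdc gate with 744, 445, 464 and 648, which changed places in ConA+FICZ with overlapping intervals. B cells were last in each library, at 2.25, 5.38, 7.97 and 2.98 CPM from 6, 26, 17 and 13 UMIs. UMIs of the T list (Cd3d, Cd3e, Cd3g, Trac, Trbc1, Trbc2) made 232, 82.3, 118 and 119 CPM of the NK gate, all from 3 of the 6 genes, since the gate admits no Cd3 UMI. They lay in 41.8%, 26.7%, 34.2% and 37.7% of its cells. In NK cells without a T list UMI the Il2rb UMIs numbered 104, 449, 287 and 276. The part of T cells in the NK gate was not tested.

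Between conditions the NK level of Il2rb varied little. The log2 ratio was -0.06 (-0.29 to 0.18) for ConA, 0.07 (-0.11 to 0.24) for TCDD and -0.22 (-0.39 to -0.04) for FICZ, the last of them -0.05 under stricter gates. In NKT-type cells Il2rb was lower in ConA+Veh than in Naïve, at a log2 ratio of -0.74 (-0.96 to -0.51). That ratio was -0.11 with gates set on thinned cells and -0.35 without cycling cells, which made 2.11% of NKT-type cells in Naïve and 25.3% in ConA+Veh. In the Foxp3/Ikzf2 gate it was higher, with 167, 416, 326 and 424 CPM and a log2 ratio of 1.32 (0.41 to 2.40), from 11 cells in Naïve. The TCDD ratio there was -0.35 (-0.71 to 0.00) and turned to 0.62 with gates set on thinned cells. In the Trdc gate the FICZ ratio was 0.54 (0.04 to 1.04). In B cells the ConA ratio of 1.26 (-0.06 to 2.83) was past 2-fold with an interval that held 0.

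CD8 T cells held 165 (137 to 198), 191 (178 to 203), 144 (132 to 158) and 161 (149 to 175) CPM of Il2rb. The ConA+Veh level was not separated from Naïve, at a log2 ratio of 0.20 (-0.08 to 0.50), and the ligand libraries were lower than ConA+Veh, at -0.40 (-0.56 to -0.24) with TCDD and -0.24 (-0.39 to -0.09) with FICZ. Naive-type CD8 T cells stood at 133, 234, 116 and 199, with a TCDD log2 ratio of -1.01 (-1.42 to -0.61). CD8 T cells in neither set stood at 341, 472, 236 and 209 CPM, above the naive-type cells in each library, though by little in ConA+FICZ. CD4 T cells held 199, 132, 137 and 170.0 CPM, lower in ConA+Veh than in Naïve at -0.59 (-1.06 to -0.11) and higher with FICZ than in ConA+Veh at 0.36 (0.02 to 0.70). Without cycling cells these CD4 T ratios were 0.17 and -0.32, the reverse in direction. Naive-type CD4 T cells stood at 15.2, 159.5, 76.4 and 143 CPM, from 2, 28, 14 and 56 UMIs, a ConA ratio of 3.40 (1.41 to 6.51). CD4 T cells in neither set stood at 690.1, 344, 452 and 298, at -1.01 (-1.78 to -0.24), so the ConA ratio differed in sign between these states. RefSeq promoter windows were found for 6 of the 7 genes, and Il2rb had none.

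**Figure D3:**
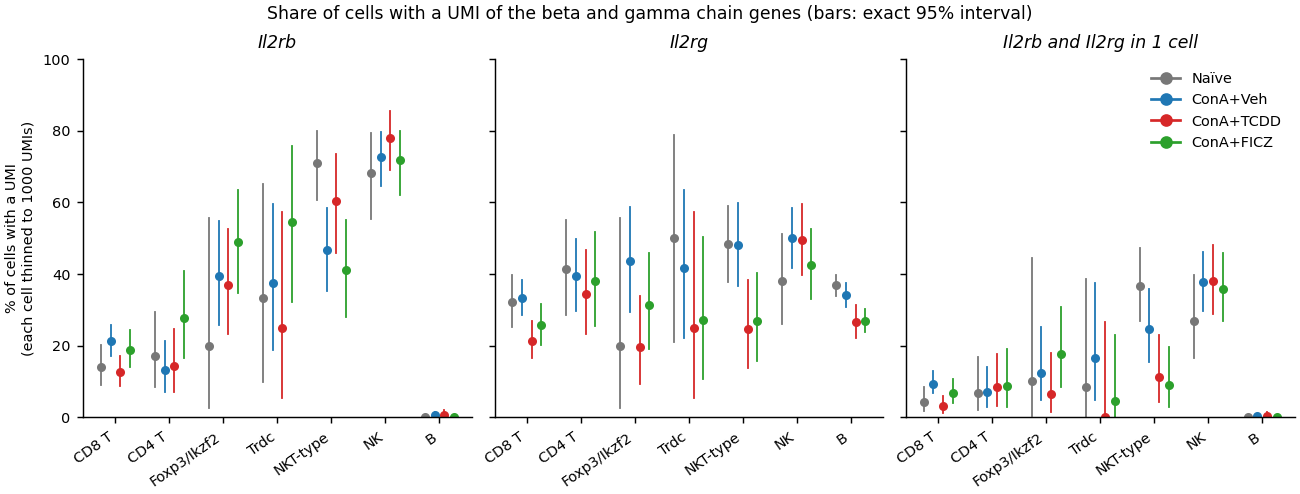
Share of cells with a UMI (vertical axis, percent) of Il2rb, of Il2rg and of both, by gate and library (colour), after every cell was thinned to 1000 UMIs, with exact binomial 95% intervals. NK cells with Il2rb make 68.3% to 78.1% of the thinned cells in every library. NKT-type cells with both chains make 36.6% in Naïve and 8.93% in ConA+FICZ, and the intervals of the ConA libraries overlap.

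Since deeper cells show more genes, shares of cells with a UMI were compared after each cell was thinned to 1000 UMIs. The thinned share of NK cells with Il2rb was 68.3%, 72.6%, 78.1% and 71.7%, against 78.5%, 92.5%, 93.9% and 91.2% unthinned. Erythroid cells, with at least 10% of their UMIs from haemoglobin genes, should lack these receptors. After thinning 1 of 115 of them (0.870%) had Il2rb and 0 of 115 any other member. For 0 of 115 a floor of 3 counts gives 2.61%, and the exact upper limit is 3.16%. The median NK cell held 1522, 2507, 2509 and 2630.5 UMIs and the median erythroid cell 1561.5, 1129, 1223.5 and 948.5. Thinning left out 16, 15, 9 and 8 NK cells, 30, 58, 27 and 32 B cells, and at most 6 cells of the CD8 T, CD4 T and NKT-type gates in a library. NK cells with both Il2rb and Il2rg, the pair that can bind IL-15, made 27.0% (16.6 to 39.7%), 37.7% (29.8 to 46.1%), 38.1% (28.8 to 48.1%) and 35.8% (26.8 to 45.7%). NKT-type cells with both made 36.6% (26.8 to 47.2%), 24.7% (15.6 to 35.8%), 11.3% (4.27 to 23.0%) and 8.93% (2.96 to 19.6%), and unthinned 72.6%, 75.9%, 71.7% and 62.1%. The thinned share with both was lower in the NKT-type gate of each ligand library than in Naïve, without overlap of the intervals. Against ConA+Veh, the control of the ligands, the intervals of both ligand libraries overlapped. The gate itself was set on unthinned cells. In NK cells the intervals of all 4 libraries overlapped.

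The alpha chain of the IL-2 receptor, Il2ra or CD25 (chr2:11642807-11693193, plus strand), is induced on T cells by antigen receptor signals and is carried at rest by regulatory T cells. The bases before its RefSeq start (GRCm38.p6, chr2:11642542-11642791, plus strand) are shown because Il2ra was higher with ConA in several gates. The capitals mark overlapping matches to the kappaB motif at -201 to -191, which 8.46% of the promoter windows hold on either strand.

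Il2ra: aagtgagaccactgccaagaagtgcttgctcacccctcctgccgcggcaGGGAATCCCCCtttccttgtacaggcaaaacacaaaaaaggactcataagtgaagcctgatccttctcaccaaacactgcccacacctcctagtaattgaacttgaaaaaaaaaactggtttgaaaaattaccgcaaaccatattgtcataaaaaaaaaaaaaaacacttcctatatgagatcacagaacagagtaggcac

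No match to the STAT, FOXO, ETS or AHR letters was found in this window.

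In CD8 T cells Il2ra stood at 27.3 (16.4 to 42.7), 94.3 (85.9 to 103), 103 (92.2 to 114) and 74.9 (66.3 to 84.3) CPM, from 19, 459, 343 and 275 UMIs. Naïve was lowest and its interval lay apart from those of all 3 ConA libraries. The ConA ratio was 1.79 (1.13 to 2.53), rank 434 from the top of 8998 genes. TCDD gave 0.12 (-0.08 to 0.33) and FICZ -0.33 (-0.55 to -0.11), which turned to 0.40 without cycling cells. T cells that no subset gate took, 180, 183, 234 and 136 in number, stood at 23.6, 69.8, 159 and 92.0 CPM, a TCDD ratio of 1.19 (0.85 to 1.53) and past 2-fold, and all T cells together had a TCDD ratio of 0.24 (0.10 to 0.38). The Il2ra UMIs lay in 6, 152, 126 and 83 CD8 T cells. After thinning 1.21% (0.147 to 4.31%), 11.5% (8.50 to 15.2%), 14.1% (10.1 to 18.9%) and 8.40% (5.21 to 12.7%) of CD8 T cells had a UMI, and unthinned 3.57%, 39.2%, 47.0% and 34.7%.

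CD8 T cells of every state in the ConA libraries held Il2ra. Naive-type cells stood at 24.8, 89.9, 128 and 124 CPM and cells in neither set at 50.2, 142, 252 and 156. Cycling CD8 T cells of the ConA libraries stood at 93.2, 80.4 and 53.6, lower with FICZ than in ConA+Veh by a log2 ratio of -0.80 (-1.09 to -0.52). Levels were thus not highest in the cycling cells of any ConA library.

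In CD4 T cells Il2ra stood at 15.3 (4.18 to 39.3), 83.8 (68.0 to 102), 83.8 (65.9 to 105) and 156 (130.4 to 185) CPM, from 4, 97, 75 and 132 UMIs. ConA+Veh was above Naïve by a log2 ratio of 2.45 (1.05 to 4.36), rank 66 from the top of 6090 genes. The TCDD ratio was 0.00 (-0.45 to 0.45), with alternatives from -0.92 to 0.67, and the level with FICZ was higher, at 0.89 (0.51 to 1.29). The FICZ difference rested on the weighting of cells, being -0.30 when each cell counted equally and -0.72 with gates set on thinned cells.

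Among the 3 ConA libraries the Foxp3/Ikzf2 gate had the highest Il2ra of the 7 gates, with an interval that overlapped the next. It stood at 33.4 (4.04 to 121), 242 (199 to 291), 183 (139 to 236) and 193 (156 to 237) CPM. Naïve rested on 2 UMIs and the ConA ratio was 2.86 (0.97 to 5.92). Cells with a Foxp3 UMI were 3 of 11 in Naïve and 8 of 49 in ConA+Veh. The other cells entered by Ikzf2 with Ctla4 or Tnfrsf4, and the part of this rule in the Il2ra rank and ratio was not tested. Cells with a Foxp3 UMI, 15 in ConA+TCDD and 19 in ConA+FICZ, stood at 465 and 372 CPM. In the Trdc gate Il2ra was at 0 UMIs in Naïve, which a floor of 3 counts puts at up to 101 CPM, and at 140.1, 112 and 77.3 CPM in the ConA libraries. Against that floor the ConA ratio was 0.47, with a lower limit of 0.05 from counting error. The exact interval of the Naïve level reached 125 CPM and overlapped that of ConA+Veh, 88.8 to 210. With each cell weighted equally the ratio against the floor was -0.01.

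NKT-type cells already carried Il2ra in Naïve livers. They held 87.3 (58.5 to 125), 106 (79.5 to 139), 72.9 (48.5 to 105) and 113 (80.6 to 155) CPM, with log2 ratios of 0.28 (-0.40 to 0.99) for ConA, -0.54 (-1.26 to 0.15) for TCDD and 0.09 (-0.54 to 0.72) for FICZ. Their intervals overlapped over all 4 libraries, and in Naïve their level lay above that of CD8 T cells without overlap. NK cells stood at 28.1, 40.2, 21.2 and 24.9 CPM, with overlapping intervals.

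B cells held little Il2ra, at 5.63 (3.15 to 9.29), 19.0 (15.3 to 23.3), 34.2 (26.8 to 43.0) and 17.4 (13.7 to 21.8) CPM from 15, 92, 73 and 76 UMIs, but the libraries differed. ConA+Veh was above Naïve by a log2 ratio of 1.76 (0.96 to 2.65) and ConA+TCDD above ConA+Veh by 0.85 (0.38 to 1.31), while FICZ gave -0.13 (-0.58 to 0.33). UMIs of the T list made 5.63, 26.5, 16.9 and 8.26 CPM of the B gate and lay in 1.39%, 15.6%, 9.35% and 4.61% of its cells. In B cells without a T list UMI the Il2ra UMIs numbered 14, 81, 63 and 69. The gate admits at most 1 UMI of the T list per cell, which caps these values, and the part of T cell RNA in the Il2ra level was not tested.

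The IL-15 alpha chain Il15ra (chr2:11705290-11734317, plus strand) is the neighbour of Il2ra, 12096 bases away on the same strand with no gene between. It was scarce in lymphocytes. CD8 T cells held 5.75, 6.37, 7.49 and 8.17 CPM from 4, 31, 25 and 30 UMIs, with overlapping intervals. B cells held 2.63, 2.48, 7.03 and 6.19 CPM, from 7, 12, 15 and 27 UMIs in 7, 12, 14 and 23 cells. The B cell log2 ratios were 1.5 (0.31 to 2.73) for TCDD and 1.32 (0.29 to 2.43) for FICZ, past 2-fold from few molecules, and the FICZ ratio turned to -0.13 with each cell weighted equally. Mononuclear phagocytes, which present IL-15 on this chain, stood higher than B cells in each library, at 22.7, 15.5, 31.5 and 29.1 CPM, with log2 ratios of 1.02 (0.16 to 1.86) for TCDD and 0.91 (0.24 to 1.60) for FICZ.

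Il7r (chr15:9505788-9530176, minus strand), the chain through which IL-7 maintains naive and memory T cells, had the 2 ratios farthest from 0 among the pairs with enough UMIs, in CD8 and CD4 T cells. In CD8 T cells it stood at 490.3 (439.6 to 545), 25.7 (21.4 to 30.6), 22.5 (17.7 to 28.2) and 19.9 (15.6 to 25.0) CPM, from 341, 125, 75 and 73 UMIs. Naïve was far above the 3 ConA libraries, whose intervals overlapped one another. The ConA ratio was -4.25 (-4.56 to -3.95), rank 10 from the bottom of 8998 genes, and it ranged from -4.79 to -3.07 over the alternatives. The UMIs per CD8 T cell were 2.03, 0.322, 0.280 and 0.305, so Il7r was lower per cell as well as per UMI. The TCDD and FICZ log2 ratios were -0.19 (-0.63 to 0.23) and -0.37 (-0.81 to 0.06).

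In CD4 T cells Il7r stood at 345 (277 to 424), 34.6 (24.7 to 47.1), 24.6 (15.4 to 37.2) and 23.6 (14.4 to 36.5) CPM. The ConA ratio was -3.32 (-3.89 to -2.77), rank 9 from the bottom of 6090 genes. The TCDD and FICZ ratios were -0.49 (-1.31 to 0.29) and -0.55 (-1.40 to 0.26), with alternatives from -1.43 to 0.34 and from -2.08 to 0.17. After thinning 40.0% (32.5 to 47.9%), 6.02% (3.85 to 8.90%), 3.05% (1.33 to 5.93%) and 5.04% (2.63 to 8.64%) of CD8 T cells had an Il7r UMI, against 65.5%, 22.7%, 17.9% and 19.7% unthinned, and 27.6%, 9.09%, 2.86% and 3.45% of CD4 T cells, against 56.7%, 27.5%, 25.4% and 20.3% unthinned. In the Naïve library the gates with most Il7r were CD8 T, Trdc and CD4 T cells, with overlapping neighbours, and then NKT-type cells, apart from CD4 T cells.

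The remaining T cell gates were lower in Il7r too, by less. NKT-type cells stood at 208 (162 to 263), 74.1 (52.2 to 102), 80.8 (54.9 to 115) and 108 (75.7 to 148) CPM, a ConA ratio of -1.49 (-2.10 to -0.89), and were the highest gate in the ConA libraries, where neighbours overlapped. The Foxp3/Ikzf2 gate stood at 200.2, 69.7, 68.3 and 52.5, at -1.52 (-2.52 to -0.43), and the Trdc gate at 372, 67.0, 64.0 and 106, at -2.47 (-3.82 to -1.13). The Trdc ratio was -0.97 without cycling cells. Il7r was thus past 2-fold lower in 5 of the 6 gates with enough UMIs. Pooled over the 7 gates, 13.4% of all pairs of gene and gate were that much lower. The share of genes lower in as many gates as Il7r is not given, and all gates share the Naïve and ConA+Veh libraries.

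Il7r was also compared within cell states. Naive-type CD8 T cells stood at 537, 19.5, 26.5 and 15.8 CPM, a ConA ratio of -4.78 (-5.71 to -3.99). Cycling CD8 T cells of the ConA libraries stood at 24.5, 19.1 and 20.6. CD8 T cells in neither set stood at 381, 84.1, 44.8 and 24.6, a ConA ratio of -2.18 (-3.21 to -1.24), so the ratio was farther from 0 in naive-type cells. Naive-type CD4 T cells stood at 523, 68.4, 21.8 and 17.8, from 69, 12, 4 and 7 UMIs, with TCDD and FICZ ratios of -1.65 (-3.74 to 0.08) and -1.94 (-3.52 to -0.48).

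T cells with at least 3 genes of a stimulated-type set (Nr4a1, Nr4a3, Egr2, Gadd45b, Cd200, Tnfrsf9), which mark recent receptor signalling, were low in Il7r in every library, at 21.1, 22.0, 21.2 and 17.8 CPM. For them the ConA ratio was 0.06 (-1.12 to 1.54). T cells without that set stood at 434, 49.2, 44.0 and 46.2, a log2 ratio of -3.14 (-3.36 to -2.93). In CPM the stimulated-type cells of Naïve were the low ones, but they numbered 18. After thinning 16.7% (3.58 to 41.4%) of them had an Il7r UMI, an interval that overlapped the 31.9% (27.7 to 36.3%) of other Naïve T cells. In ConA+Veh these thinned shares were 4.04% and 9.38%. The low Naïve level of stimulated-type cells therefore rests on few cells. In the ConA libraries cells without the set were low in CPM as well.

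**Figure D4:**
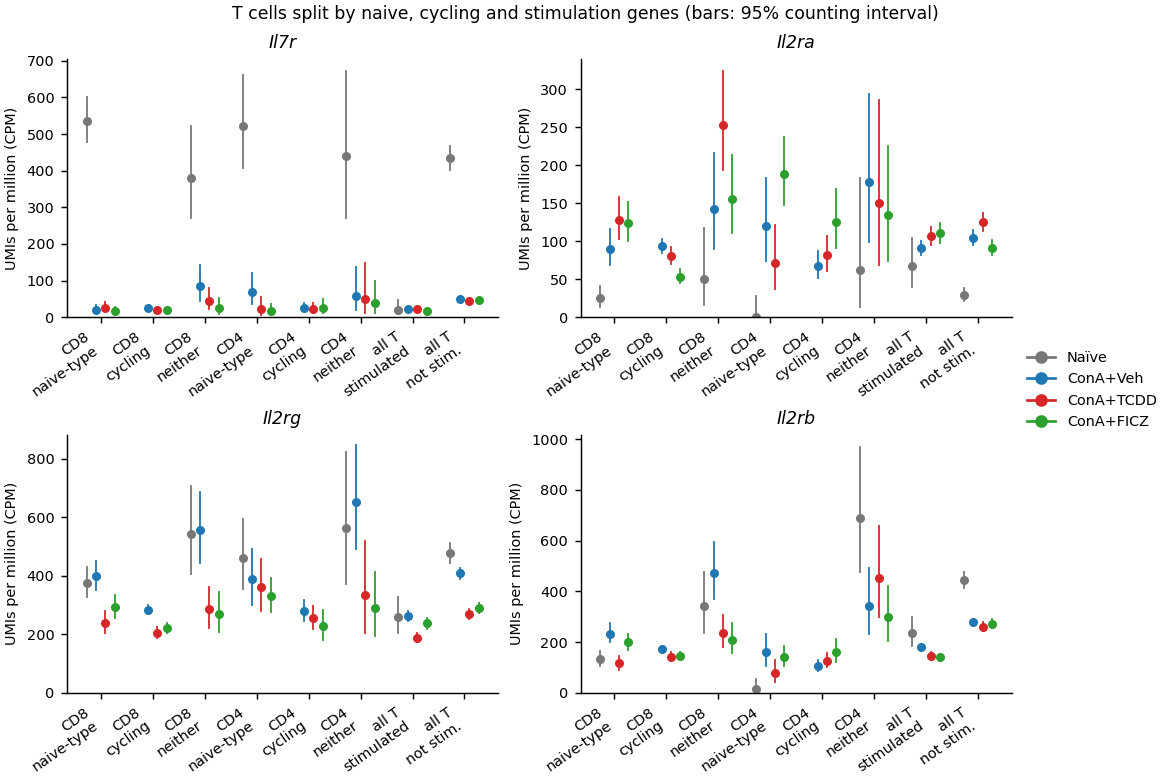
Level in CPM (vertical axis, own scale per panel) of Il7r, Il2ra, Il2rg and Il2rb in naive-type, cycling and other CD8 and CD4 T cells and in stimulated-type and other T cells, by library (colour), with exact Poisson 95% intervals. Stimulated-type T cells, 18 in Naïve, are at 17.8 to 22.0 CPM of Il7r in every library, and the other T cells at 434 in Naïve and 44.0 to 49.2 in the ConA libraries.

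CD8 T cells with both Il7r and Il2ra numbered 1, 46, 27 and 14 unthinned. After thinning, 0, 6, 1 and 2 cells held both. For 0 of 165 in Naïve a floor of 3 counts gives a share of 1.82%, which is not an exact limit. The Il7r and Il2rg pair, the complete IL-7 receptor, was found in 13.3% (8.55 to 19.5%), 2.88% (1.45 to 5.09%), 1.15% (0.237 to 3.31%) and 1.68% (0.460 to 4.25%) of CD8 T cells, and unthinned in 50%, 21.1%, 14.2% and 18.0%. All 3 IL-2 receptor chains were found in 2, 23, 6 and 5 T cells of any gate after thinning, or 0.402%, 2.88%, 0.894% and 0.901%, against 5.30%, 25.8%, 24.6% and 26.1% unthinned. The IL-7 receptor pair was thus most frequent in Naïve, thinned or not. For the 3-chain IL-2 receptor no order among the ConA libraries is read, since their unthinned shares were close and the thinned ones rest on few cells.

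NK and B cells held little Il7r. NK cells had 5, 4, 3 and 0 UMIs. B cells had 8, 20, 15 and 47 UMIs in 6, 15, 13 and 31 cells, or 3.0 (1.30 to 5.92), 4.14 (2.53 to 6.39), 7.03 (3.94 to 11.6) and 10.8 (7.92 to 14.3) CPM. The FICZ library was above ConA+Veh by a log2 ratio of 1.38 (0.60 to 2.21), with alternatives from 1.01 to 1.70, and TCDD gave 0.77 (-0.30 to 1.80). In B cells without a T list UMI the Il7r UMIs numbered 8, 16, 14 and 44. As for Il2ra, the part of T cell RNA in them was not tested.

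Il4ra (chr7:125552120-125579474, plus strand) is the chain through which IL-4 supports B cells and their class switch. In B cells it stood at 130.2 (117 to 145), 40.8 (35.3 to 46.9), 39.4 (31.4 to 48.8) and 47.2 (41.0 to 54.1) CPM, from 347, 197, 84 and 206 UMIs in 286, 161, 73 and 179 cells. The Naïve level lay far above the 3 ConA libraries, whose intervals overlapped. The ConA ratio was -1.68 (-1.94 to -1.42), rank 464 from the bottom of 9521 genes, with alternatives from -1.85 to -1.01. TCDD and FICZ gave -0.05 (-0.44 to 0.33) and 0.21 (-0.08 to 0.50). The UMIs per B cell were 0.321, 0.241, 0.218 and 0.264, a smaller difference than in CPM, and the median B cell held 2126, 4254, 3602 and 3613 UMIs.

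After thinning 13.8% (11.8 to 16%), 5.12% (3.67 to 6.94%), 3.91% (2.15 to 6.47%) and 6.81% (5.11 to 8.86%) of B cells had an Il4ra UMI, and unthinned 26.5%, 19.7%, 19.0% and 22.9%. Thinned, Naïve was above the other libraries without overlap. B cells were the second of the 7 gates for Il4ra in Naïve, with overlapping neighbours, and the last in the 3 ConA libraries. In ConA+Veh their interval lay apart from those of all other gates. In the ligand libraries it lay apart from that of CD8 T cells only and overlapped the rest. The antisense gene Gm44876 overlaps Il4ra and had 1, 1, 3 and 1 UMIs in the libraries.

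In T cells Il4ra differed less. CD8 T cells held 94.9, 74.0, 57.2 and 63.2 CPM, lower with TCDD than in ConA+Veh at -0.37 (-0.63 to -0.11), and FICZ gave -0.23 (-0.47 to 0.01). CD4 T cells held 76.7, 76.0, 48.1 and 64.9, with -0.66 (-1.22 to -0.12) for TCDD and -0.23 (-0.74 to 0.27) for FICZ, the TCDD value becoming -0.08 under stricter gates. NKT-type cells, a source of IL-4, held 105, 98.2, 52.1 and 75.6, with -0.91 (-1.74 to -0.14) for TCDD, which became -0.26 with gates set on thinned cells. The Foxp3/Ikzf2 gate held 16.7, 80.6, 74.5 and 65.1 CPM, from 1 UMI in Naïve, a ConA ratio past 2-fold with an interval that held 0, 2.27 (-0.30 to 7.61). The Trdc gate held 169, 97.5, 64.0 and 77.3. The TCDD log2 ratio of Il4ra was below 0 in 7 of 7 gates, where the median of all genes lay between -0.19 and 0.04. Its interval lay below 0 in 3 of them. That direction was not particular to Il4ra, as Il21r was also below 0 in 7 gates and Il2rg in 6. Of the 42 pairs of member and gate with TCDD, 30 were below 0. The gates share the same libraries. Over the alternatives the Il4ra ratio reached 1.36 in the Foxp3/Ikzf2 gate and 0.10 in B cells. NK cells stood at 77.2, 80.4, 60.6 and 74.7 CPM, and neutrophils, outside the lymphocyte gates, at 222, 118, 95.6 and 189.9.

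Il21r (chr7:125603429-125633570, plus strand) follows Il4ra on the same strand after 23954 bases with no gene between. In CD8 T cells it stood at 105 (82.3 to 132), 110.4 (101 to 120.1), 95 (84.8 to 106) and 73.6 (65.1 to 82.9) CPM. Naïve and ConA+Veh did not separate, at a log2 ratio of 0.07 (-0.28 to 0.45), and FICZ was lower than ConA+Veh, at -0.59 (-0.80 to -0.37). TCDD gave -0.22 (-0.42 to -0.01). Cycling cells held 109.8, 92.9 and 61.5 CPM in the ConA libraries, a FICZ ratio of -0.84 (-1.10 to -0.58), and the FICZ ratio of CD8 T cells was -0.10 without them and -0.11 without cells of few genes or many mitochondrial UMIs.

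CD4 T cells, which make and use IL-21, held 69.0 (40.9 to 109), 113 (94.6 to 134), 107 (86.9 to 131) and 74.4 (57.1 to 95.1) CPM of Il21r. ConA+Veh lay above Naïve by 0.71 (0.00 to 1.51), an interval that reached 0, and FICZ below ConA+Veh at -0.61 (-1.06 to -0.16), or -0.08 with gates set on thinned cells. B cells held 128, 95.2, 91.9 and 92.0, lower in ConA+Veh than in Naïve at -0.43 (-0.63 to -0.22), where the median of all genes was -0.27, and at 0.02 with each cell weighted equally. The Foxp3/Ikzf2 gate held 66.7, 100.2, 90 and 90.3 CPM and NKT-type cells 123, 86.2, 62.5 and 64.0, with Naïve lowest in the first and highest in the second. NK cells were the last of the 7 gates in all 4 libraries, at 35.1, 45.9, 30.3 and 24.9 CPM. Their interval overlapped that of the next gate in each library, and Naïve rested on 5 UMIs. The Trdc gate held 203, 152, 64.0 and 116 CPM and gave the only pair more than 2-fold lower with TCDD, at -1.25 (-3.23 to 0.28), from 25 UMIs in ConA+Veh and 4 in ConA+TCDD, an interval that holds 0.

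**Figure D5:**
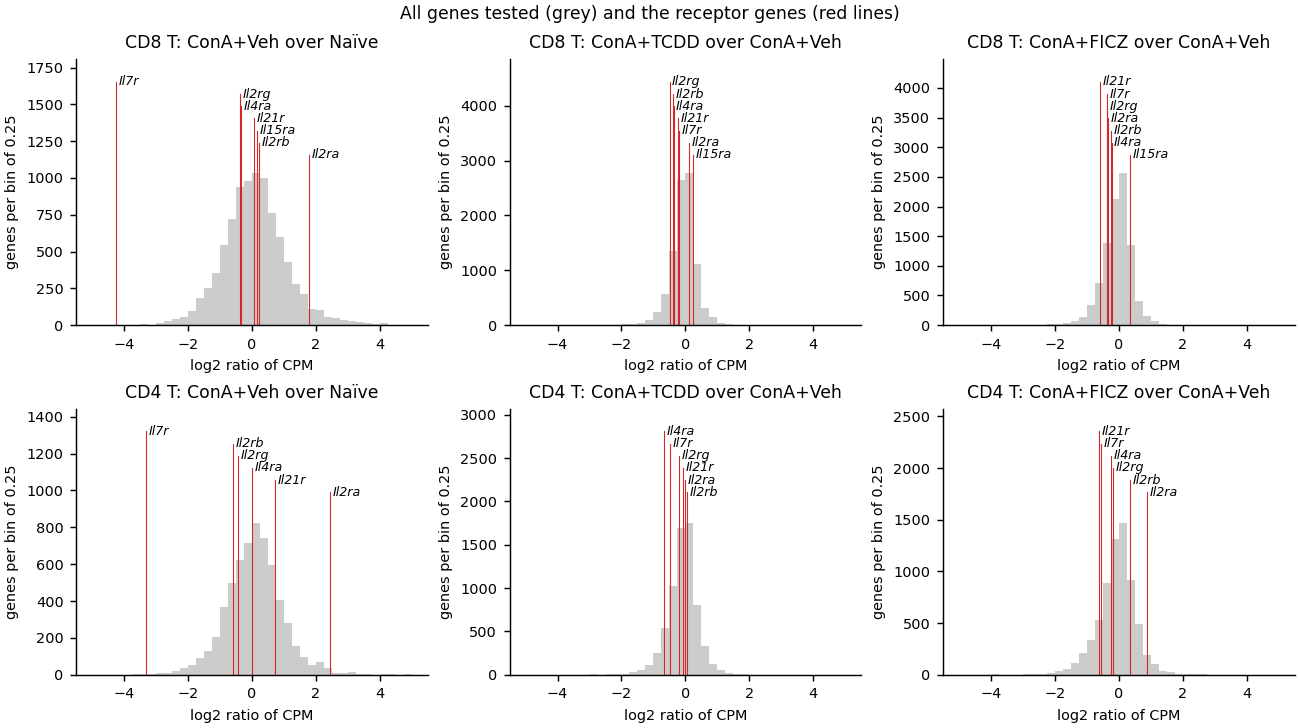
Distribution of log2 CPM ratios of all genes with at least 20 UMIs over both libraries (vertical axis, genes) in CD8 and CD4 T cells in each comparison, with red lines at the receptor genes. Il7r at -4.25 and -3.32 lies in the lower tail of ConA+Veh over Naïve and Il2ra at 1.79 and 2.45 in the upper, and in the ligand panels no line lies past 2-fold.

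Ligands, other receptor chains, kinases, STAT factors, feedback genes and targets of the same pathway, 24 genes, were counted by the same rule, and the 8 named here were chosen after their values were seen. Between Naïve and ConA+Veh 88 pairs of gene and gate had enough UMIs, of which 6 were more than 2-fold higher and 19 lower, against 12.1% and 13.4% of all genes, with a median log2 ratio of -0.41. With TCDD 2 of 87 were higher and 3 lower, against 1.67% and 3.81%, with a median of 0.10. With FICZ 4 of 91 were higher and 5 lower, against 2.41% and 4.45%, with a median of 0.14. The ligand counts are close to that background. Kinases and factors gave 1 higher and 9 lower of 36 with ConA+Veh, against the same shares. Stat5b, which carries signals of IL-2, IL-7 and IL-15, stood at 76.2, 35.1, 37.4 and 29.4 CPM in CD8 T cells, a log2 ratio of -1.12 (-1.57 to -0.64) for ConA. It was the 1 of 6 kinases and factors more than 2-fold lower in that gate, where 11.7% of all genes were. No alternative setting is given here for the genes of this list. Stat6, the factor of IL-4, stood at 82.2, 38.3, 31.4 and 49.1 in B cells, a log2 ratio of -1.10 (-1.39 to -0.81). In B cells, where Il4ra was lower too, 3 of 6 kinases and factors were more than 2-fold lower. So were 18.7% of all genes in that gate, whose median log2 ratio was -0.27. A link between Stat6 and Il4ra was not tested.

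Feedback and target genes gave 2 higher and 7 lower of 39 pairs with ConA+Veh, against the same 12.1% and 13.4%. Bcl2, a survival gene downstream of IL-7, stood at 290.4, 89.0, 86.6 and 96.7 CPM in CD8 T cells, a log2 ratio of -1.71 (-1.95 to -1.46). It was the 1 of 6 feedback and target genes more than 2-fold lower in that gate, where 11.7% of all genes were. Myc, a growth gene, stood at 308, 95.8, 121 and 189 in B cells, lower in ConA+Veh than in Naïve at -1.68 (-1.85 to -1.52) and higher with FICZ than in ConA+Veh at 0.98 (0.82 to 1.15). Myc was the 1 of 6 such genes more than 2-fold lower in ConA+Veh in B cells, where 18.7% of all genes were. Cish, a feedback inhibitor induced by STAT5, was higher in NK cells with TCDD, at a log2 ratio of 1.46 (0.60 to 2.36). The TCDD ratios of Il2rg and Il2rb in NK cells had intervals that held 0.

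Of the ligands, only 6 of 56 pairs had enough UMIs. Among these 3 were more than 2-fold higher in ConA+Veh, against 12.1% of all genes, and 0 lower, against 13.4%. In CD4 T cells 2 of 3 pairs were higher. With 1 UMI in Naïve, Il21 in CD4 T cells reached the minimum of 20 UMIs only through ConA+Veh. No excess over the background is therefore read from these counts. Il21 UMIs in CD4 T cells numbered 1, 54, 28 and 76, in 1, 20, 17 and 18 cells. Il2 in CD4 T cells of ConA+Veh rested on 77 UMIs of which 76 lay in 1 cell. Il4 UMIs in NKT-type cells numbered 55, 65, 83 and 15 in 30, 11, 10 and 8 cells, lower with FICZ than in ConA+Veh at -1.58 (-2.50 to -0.75). The Il2 count is therefore that of a single cell, while Il21 was spread over cells. The Il4 ratio rests on few cells, 11 of 79 NKT-type cells in ConA+Veh and 8 of 58 in ConA+FICZ. Its interval treats the UMIs of 1 cell as independent.

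Genes whose level followed a member over the 28 pairs of gate and library are given as a description, by Pearson's r of log2(CPM + 10) among 8427 genes. The points share gates, libraries and depth. Closest to Il2rb were AW112010 (0.96), Id2 (0.96) and Dok2 (0.95). Closest to Il2ra were Hacd3 (0.90) and the glycolytic genes Tpi1 (0.84) and Pkm (0.83). Il7r went with Bcl11b (0.85), a T cell factor, and with Plcg1 (0.84), besides Trbc2 (0.85), which is part of the T gate. Il2rg went with Cd52 (0.85), Gsdmd (0.84) and Adgre5 (0.84), and Il4ra with Kat6b (0.83), Coq10b (0.82) and Ly9 (0.82). For Il21r the closest were Rbm38 (0.73), Rhno1 (0.71) and Gm8369 (0.71), and for Il15ra Pcid2 (0.69), Maz (0.68) and Mad1l1 (0.64), lower values than for the other members.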

How the data were processed

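Liver mononuclear cells of 4 conditions were sequenced with the 10x Genomics 5′ assay. The authors aligned reads to mm10 and counted UMIs with Cell Ranger (the submitters' notes also name bcl2fastq). The deposited values are raw UMI counts per gene and cell, with no normalization, in cells that Cell Ranger kept. No cell was left out for its quality. Genes of the T, B, NK, myeloid, endothelial and erythroid lineages assigned the cells, with at least 2 UMIs of a lineage and at most 1 of another. No doublet caller was run, and 23, 83, 26 and 70 cells with several lineages were left out. No gate took 187, 469, 482 and 526 cells without enough markers (8.96%, 16.9%, 25.6% and 20.6% of a library) and 36, 30, 32 and 25 with UMIs of another lineage. Levels, exact Poisson intervals, ratios with exact binomial intervals and Clopper-Pearson shares were computed with scipy 1.17.1, pandas 2.3.3, matplotlib 3.10.9 and numpy 2.4.6 under Python 3.11.15. The ratios and their intervals were also run on sums simulated with counting error only. Such sums hold no spread between cells, mice or libraries, so they cannot test the intervals against it. A count of 0 received a floor of 3 counts. A ratio needed 10 cells per gate and 20 UMIs over both libraries. Since each condition has 1 library, no p-value is given. All members are named, with at most 8 genes of the pathway list and the 3 genes most like each member. Members, lists and gates were chosen with earlier results of these data known. A gene of the naive-type set and a marker of the Trdc gate are not reported here. Promoter sequences came from RefSeq (GRCm38.p6). Alternatives changed the gates, the scaling, the cell filters, the fold and the minimum count.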

Additional observations from a re-analysis of the deposited data

How the results depend on the processing

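No paired analysis was possible because each group has 1 library, and no library could be left out. The 13 pairs past 2-fold between ConA+Veh and Naïve ranged from 9 to 19 over the alternatives, split 10 higher and 5 lower with the mean over cells and 7 and 8 when centred on the median of all genes, against 7 and 6. The 2 pairs with TCDD became 5 with stricter gates, 7 with the mean over cells (2 higher, 5 lower), 5 with cells under 200 genes or over 10% mitochondrial UMIs left out, 4 without cycling cells, 11 at 1.5-fold (18.7% of all genes), 0 with at least 50 UMIs and 6 with at least 1. The 2 pairs with FICZ became 8 with stricter gates, 5 with the mean over cells (1 higher, 4 lower), 5 without cycling cells, 10 at 1.5-fold (21.3% of all genes), 1 with at least 50 UMIs and 5 with at least 1. The log2 ratio of Il15ra in B cells with FICZ turned from 1.32 to -0.13 with the mean over cells. The causes were not tested. Single log2 ratios moved past their counting interval in 36 of 98 with gates on thinned cells and in 34 of 127 with the mean over cells. They did so in 29 of 121 without cycling cells, 21 of 116 with stricter gates and 0 of 127 without ribosomal and mitochondrial genes. Some ratios changed sign, among them the ConA ratios of Il2rg in CD8 and CD4 T cells with the mean over cells. Those of Il2rb in CD4 T cells for ConA and FICZ changed sign without cycling cells. The gate on Foxp3 alone gave values only in ConA+TCDD and ConA+FICZ, for want of 10 cells elsewhere, and 8 of these 14 levels moved. Low counts limit Il15ra, Il7r in NK and B cells, and the Trdc and Foxp3/Ikzf2 gates of Naïve.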
